A study of Mus musculus with 4 samples.

Results

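The genes described here encode the machinery that brings proteins into mitochondria, folds them, cuts them and degrades them, together with the prohibitins, cristae proteins and GTPases that shape the organelle. They were chosen by gene name, as every entry of the deposited table that begins with a fixed set of symbols (Timm, Tomm, Chchd, Hspa9, Hspd1, Lonp1, Phb, Opa1 and others of these families). That set was fixed with earlier results of these data known, so the choice was not blind to the values. Of the 4878 genes in the table, 35 matched. The samples were mouse embryonic fibroblasts at passages 5 to 8, connective tissue cells grown out of embryos and kept in standard growth conditions. Control cells were transfected with a negative control siRNA (2 libraries) and knockdown cells with the siRNA the labels call Si-eIF1A (X+18) (2 libraries). Both groups received siRNA with the same lipid reagent, Lipofectamine RNAimax. The series asks how lowered eIF1A, a factor that helps the ribosome scan for start codons, changes the mRNA of these cells.

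Nearly all mitochondrial proteins are made in the cytosol and carried in. The TOM complex of the outer membrane is the common entry gate. The SAM complex inserts barrel proteins into the outer membrane, small Tim chaperones escort hydrophobic proteins across the intermembrane space, and the TIM23 complex, driven by the matrix Hsp70 motor, pulls presequence proteins into the matrix. There a peptidase removes the presequence, the Hsp60 and Hsp10 chaperonin folds the product, and proteases remove what fails to fold. When this system is strained, cells are known to raise its chaperones and proteases, a programme in which ATF4, ATF5, CHOP and HSF1 have been described.

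Depth and sample identity set the following limits. Reads recovered from the normalised counts numbered 2152331 to 2595625 per library, with a median of 120 to 173 reads per gene. Eif1a and Eif1ax were not analysed here, so the knockdown itself was not checked. The labels do not state whether cultures were separate within a group, so the spread between these libraries may be technical. The p-values rest on that spread, combined with the spread of other genes of like signal through a mean-variance trend. The table listed 4 of 13 fibroblast markers (Vim, Fn1, Col6a1 and S100a4), and their summed value was 18876 to 24940 in controls and 10081 to 12761 in knockdowns. Vim, with 15531 to 20136 in controls, made up most of that sum. Col6a1 (1328 to 1930 in controls, 199.7 to 202 in knockdowns) and S100a4 (680 to 689 against 101 to 104) were also lower, and Fn1 overlapped (1328 to 2194 against 1338 to 1957). No epithelial, endothelial, leukocyte or smooth muscle marker of the lists used was present (0 of 7, 0 of 5, 0 of 7 and 0 of 5). Of 5 neural markers Map2 and Nes were present, with sums of 238 to 245 in controls and 132 to 151 in knockdowns. The table holds only genes with at least 1 read in every library, so absence from it does not show absence from the cells. The part of these marker differences in the results was not tested, and in bulk RNA fewer cells of a type and less RNA per cell cannot be told apart.

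Knockdown cells had more mRNA of import and folding genes, whereas none of the members tested fell. Of the 33 members with enough signal to test (mean normalised count of at least 5), 19 rose and 14 did not pass (limma with Benjamini-Hochberg adjustment over 4605 genes, adjusted p under 0.05). The count of falls was 0 in limma, also at an unadjusted p under 0.05, and 0 by edgeR and DESeq2. A gene without a read in any of the libraries is not in the table, so such a loss could not be counted as a fall. The rises were 57.6% of the members tested, beside 15.9% of all genes tested called higher and 21.6% called lower. The largest rises were in Timm9, a small Tim chaperone (6.22-fold), and Hspa9, the Hsp70 of the import motor, also known as mortalin (5.45-fold). The median log2 fold change was 0.85 over the members and −0.01 over all genes tested. In 20 of the 33 members tested both knockdown libraries lay above both controls, which is 60.6%, against 32.4% of all genes. In 1, Lonp1, both lay below, against 35.5% of all genes. Of the 19 that rose, 13 rose at least 2-fold. The count of rises was 12 without knockdown replicate 1. Fold changes throughout are on the log2(normalised count + 1) scale, which understates those of genes with few reads. Values are given for each library, 2 per group.

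**Figure D1:**
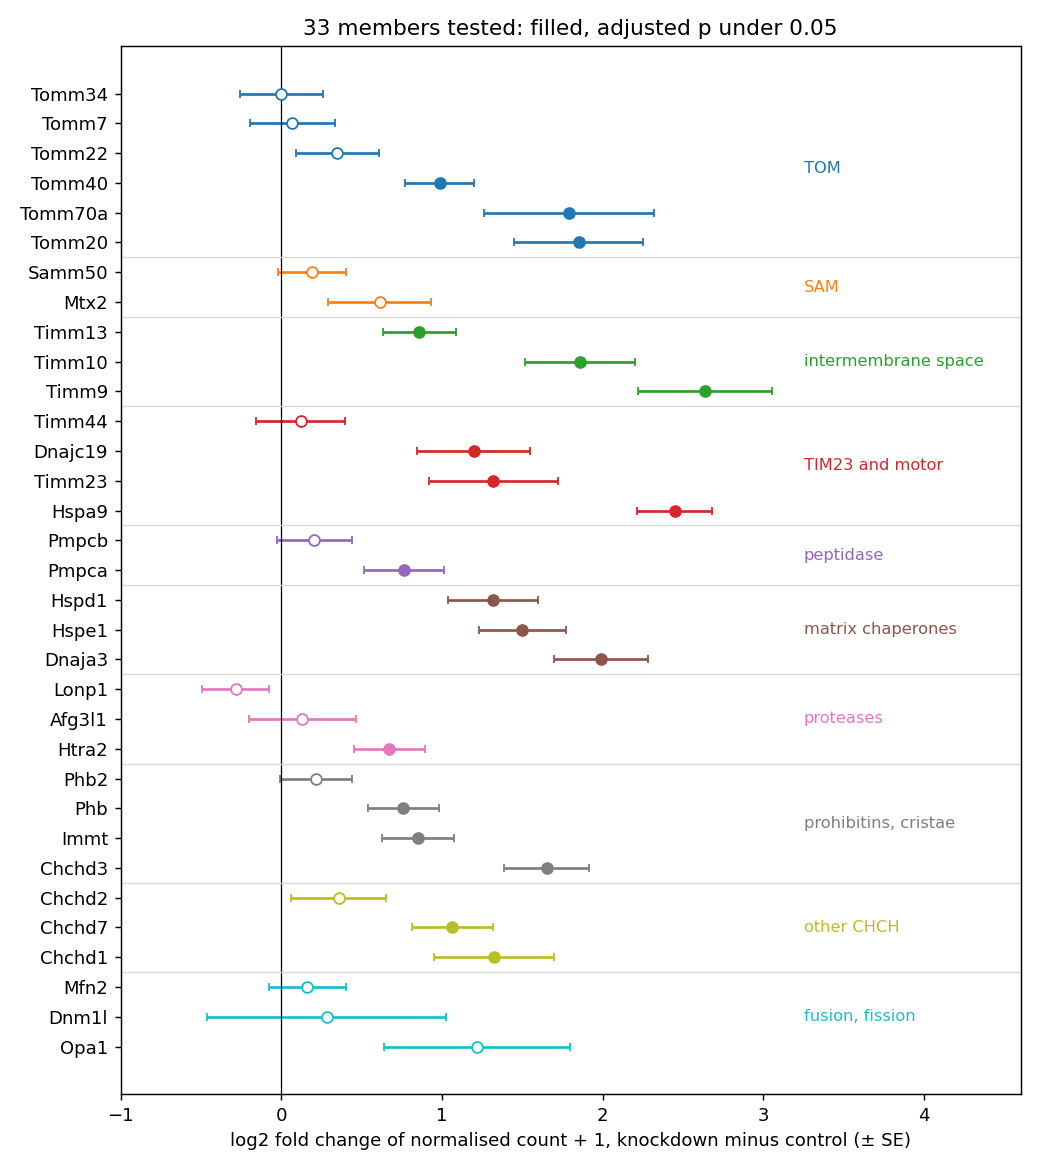
Log2 fold change (knockdown minus control, x axis, with SE) of the 33 members tested, grouped and coloured by role; filled points passed an adjusted p under 0.05. All 19 filled points lie to the right of 0, with Timm9 at 2.64 and Hspa9 at 2.45 the farthest out, and all proteases but Htra2 and all fusion and fission GTPases are open.

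The sequence before their start sites is a feature that the choice by name did not use. RefSeq windows (GRCm38.p6, the build of mm10) were held for 30 of the 35 members, and the 250 bases before each start were searched on both strands for 4 sites. Hspa9 was not among the 30, so the shares of members below do not cover it. CACGTG, the E-box read by Myc and related factors, occurred in 6 of 30 members and in 6.86% of all 27025 genes with a window. The site of nuclear respiratory factor 1, GCGCA then any base then GCGC, occurred in 5 of 30 (16.7%) and in 4.23% of all genes. GAANNTTC, a pair of heat shock units, occurred in 3 of 30 (10.0%) and in 7.73% of all genes. TGATGNAA, the core read by ATF4 with C/EBP proteins, occurred in 0 of 30 and in 3.91% of all genes. These shares are descriptions with no test, some genes have more than 1 start, and a match is not evidence of binding. The 27025 genes are all genes with a window, detected in these cells or not. No share was computed over the genes of the deposited table alone. The 4 sites were chosen with earlier results of these data known. The sequences below are examples from members that rose, with Lonp1, which did not rise, beside them. Capitals mark the match, and each sequence runs 5′ to 3′ on the strand of its gene.
Hspe1, heat shock pair 84 bases before the start, chr1:55088053-55088082, plus strand: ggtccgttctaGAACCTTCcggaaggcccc
Hspd1, the same site 139 bases before its inner annotated start, chr1:55088053-55088082, minus strand: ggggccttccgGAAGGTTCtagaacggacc
Timm9, heat shock pair 197 bases before the start, chr12:71136854-71136883, minus strand: taggctttctaGAAATTTCgacagattccg
Timm9, E-box 58 bases before the start, chr12:71136698-71136763, minus strand: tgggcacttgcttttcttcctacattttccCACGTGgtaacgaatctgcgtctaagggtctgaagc
Tomm20, E-box 126 bases before the start, chr8:126946012-126946077, minus strand: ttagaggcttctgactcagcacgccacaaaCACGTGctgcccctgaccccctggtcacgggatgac
Tomm20, nuclear respiratory factor 1 site 20 bases before the start, chr8:126945922-126945971, minus strand: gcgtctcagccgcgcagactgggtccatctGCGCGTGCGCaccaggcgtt
Dnaja3, nuclear respiratory factor 1 site 48 bases before the start, chr16:4683992-4684061, plus strand: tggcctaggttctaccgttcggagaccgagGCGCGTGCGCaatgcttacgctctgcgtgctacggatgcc
Lonp1, E-box 36 bases before the start, chr17:56626904-56626969, minus strand: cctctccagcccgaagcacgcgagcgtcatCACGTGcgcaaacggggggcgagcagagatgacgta
Hspe1 and Hspd1 lie head to head and share 1 heat shock pair. Hspd1 has an outer start too, at 55088243, so this site lies inside the gene as annotated and in an exon of its longer form. The outer window of Hspd1 holds its E-box and nuclear respiratory factor 1 site (80 and 59 bases before that start). All the heat shock matches lie in annotated exons, and their share of members is near that of all genes. The E-box occurred in 5 of the 16 risen members with a window and in 1 of the other 14, Lonp1. The nuclear respiratory factor 1 site occurred in 3 of the 16 and in 2 of the other 14.

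Among the folding chaperones of the matrix all 3 members rose. Hspe1 encodes Hsp10, the lid of the chaperonin (mm10 chromosome 1, 55088132 to 55091307, plus strand). Its normalised counts were 156 and 242 in controls 1 and 2 and 731 and 417 in knockdowns 1 and 2. Control and knockdown values were separate, and knockdown 1 was the highest library. The rise was 2.83-fold (adjusted p = 2.79e-04). Hspd1 encodes Hsp60, the chaperonin ring, and had 87.6 and 82.8 in controls and 163 and 279 in knockdowns. Here knockdown 2 was the higher of the knockdown pair, the reverse of Hspe1. Hspd1 rose 2.49-fold (adjusted p = 0.0011), and the call was lost without knockdown replicate 2 (1.91-fold, adjusted p = 0.0578). Annotated pseudogenes (5 of Hspd1 and 6 of Hspe1) can share reads with this pair and make its counts uncertain. Dnaja3, a J-protein that feeds clients to the matrix Hsp70, went from 35.4 and 38.1 to 165 and 134. Its libraries were tightly grouped, and it rose 3.97-fold (adjusted p = 3.39e-05).

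The import motor and the inner membrane channel rose in part, with 5 of 12 listed symbols present. Hspa9 had 133 and 154 normalised counts in controls and 664 and 928 in knockdowns. Every knockdown value exceeded every control value by a wide margin (5.45-fold, log2 fold change 2.45, SE 0.23, adjusted p = 1.90e-07). Hspa9 has 1 annotated pseudogene. Timm23 encodes the channel through which presequence proteins cross the inner membrane. It went from 17.7 and 17.9 to 57.3 and 36.7, a 2.50-fold rise (adjusted p = 0.0147) that was lost without knockdown replicate 1 (2.0-fold, adjusted p = 0.227). Dnajc19, the homologue of a motor J-protein that activates Hsp70 at the channel, had 24.6 and 26.8 in controls and 59.7 and 60.5 in knockdowns. It rose 2.29-fold (adjusted p = 0.0113), and its call was lost without knockdown replicate 1 (0.0747) or 2 (0.0803) and with a trend on GC content removed (0.122). Dnajc19 also has an annotated pseudogene. Timm44, which tethers Hsp70 to the channel, had 94.5 and 96.6 in controls and 88.8 and 122 in knockdowns, so the groups overlapped (log2 fold change 0.12, 95% interval −0.46 to 0.70, adjusted p = 0.771). Grpel1, the nucleotide exchange factor of the motor, had too little signal to test, with 2 and 3 reads in controls and 10 and 3 in knockdowns (ratio 2.16, 95% counting interval 0.721 to 7.73).

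The small Tim chaperones of the intermembrane space rose in all 3 cases present, of 8 symbols listed for intermembrane space import. Timm9 (mm10 chromosome 12, 71123173 to 71136684, minus strand) went from 11.8 and 13.0 normalised counts in controls to 123 and 55.0 in knockdowns. Knockdown 1 was well above knockdown 2, and both stood far above the controls (log2 fold change 2.64, SE 0.42, adjusted p = 7.43e-05). With each library left out in turn, the rise was 4.20-fold to 9.25-fold. Timm10, which forms a hexameric chaperone with Tim9, went from 24.6 and 48.7 to 153 and 107 and rose 3.63-fold (adjusted p = 3.33e-04). Timm13, of the related chaperone that works with Tim8, had 1255 and 1624 in controls and 2947 and 2277 in knockdowns. It rose 1.81-fold (adjusted p = 0.0055), and the call was lost without control replicate 1 (0.0589), without knockdown replicate 1 (0.0629) and in limma without its mean-variance trend (0.0647). Exons on the opposite strand lie within the last 1000 bases of Timm9 (Tomm20l) and Timm13 (Tmprss9), and the sources used here do not say whether counting used strand.

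The members grouped with the TOM complex of the outer membrane, among them the cytosolic Tomm34, split, with 3 of 6 rising. Tomm20, the receptor that recognises presequences, had 15.7 and 12.2 normalised counts in controls and 50.9 and 54.3 in knockdowns (3.61-fold, adjusted p = 0.0013). Both groups were tight and far apart. Tomm70a, the receptor for carrier proteins delivered by cytosolic chaperones, went from 5.91 and 7.30 to 27.4 and 23.1. Its 3.46-fold rise (adjusted p = 0.0116) rested on few reads and was lost without knockdown replicate 1 (0.127) or 2 (0.0615) and with the GC trend removed (0.0611). Tomm40, which forms the pore itself, was 816 and 1032 in controls and 1697 and 1950 in knockdowns (1.98-fold, log2 fold change 0.99, SE 0.22, adjusted p = 0.0014). The remaining 3 overlapped between groups and did not pass. Tomm22, the central receptor, had a log2 fold change of 0.35 (95% interval −0.19 to 0.89), Tomm7, a small stabilising subunit, 0.07 (−0.48 to 0.62), and Tomm34, a cytosolic cochaperone of import, −0.0003 (−0.54 to 0.54). Tomm7 had 127 and 201 in controls and 162 and 173 in knockdowns. Tomm34 had 113 and 136 against 123 and 125. Tomm22 was 295 and 553 in controls, a spread wider than the difference between the group means, and 554 and 478 in knockdowns; it passed without control replicate 2 (adjusted p = 0.0080) and at equal library totals (0.0108).

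Neither SAM member passed in limma, nor did either at an unadjusted p under 0.05 (0 of 2). Samm50, the barrel that inserts other barrels, had 969 and 1102 normalised counts in controls and 1293 and 1073 in knockdowns (log2 fold change 0.19, 95% interval −0.26 to 0.63). It passed at equal library totals (adjusted p = 0.0349) and under quantile normalisation (0.0326). Mtx2, a metaxin on its cytosolic face, had 48.2 and 92.5 against 89.6 and 118 (0.61, −0.06 to 1.29), with overlapping groups. Mtx2 passed without control replicate 2 (adjusted p = 0.0085) and at equal library totals (0.0114).

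**Figure D2:**
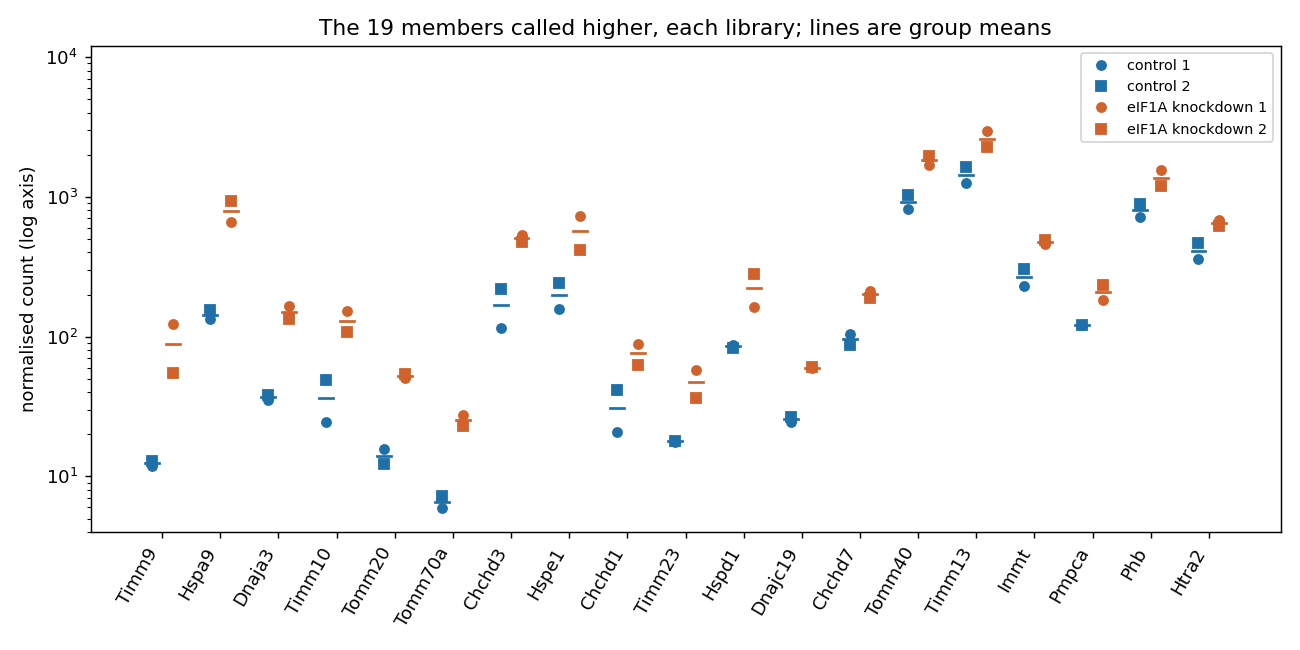
Normalised counts (log y axis) of the 19 members that rose, ordered by fold change, with 1 point for each library and a line at each group mean. In each gene both knockdown libraries lie above both controls; the knockdown libraries are farthest apart in Timm9 (123 and 55.0), Hspe1 (731 and 417) and Hspd1 (163 and 279).

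Of the peptidase and protease members, Pmpca and Htra2 rose. Only 3 of 8 listed protease symbols were present, so most of that group was not seen. The presequence peptidase is a pair of Pmpca and Pmpcb, and only the former passed. Pmpca, the subunit that binds the substrate, had 121 and 121 normalised counts in controls and 182 and 233 in knockdowns (1.69-fold, adjusted p = 0.0216), and it lost the call without knockdown replicate 2 (0.248), with the GC trend removed (0.0852) and without the variance trend (0.0697). Pmpcb, the catalytic subunit, was 257 and 250 against 340 and 251, with a log2 fold change of 0.21 (95% interval −0.28 to 0.69). Htra2, a serine protease of the intermembrane space, had 357 and 466 in controls and 682 and 621 in knockdowns. Its 1.59-fold rise (adjusted p = 0.0214) was lost without control replicate 1 (0.14), without knockdown replicate 1 (0.125) or 2 (0.0575) and without the variance trend (0.0984). Lonp1, the matrix protease that degrades oxidised proteins and a usual marker of mitochondrial protein stress, had 1596 and 1557 in controls and 1229 and 1363 in knockdowns. Both knockdown values were below both controls, and the gene did not pass (log2 fold change −0.28, 95% interval −0.72 to 0.15, adjusted p = 0.308). The sign of the Lonp1 change depended on the setting. It was 0.07 at equal library totals, 0.1 under quantile normalisation and 0.19 with the GC trend removed. Afg3l1, a subunit of a matrix-facing membrane protease, had 45.3 and 83.6 against 67.8 and 67.2, with both knockdowns between the controls (0.13, −0.56 to 0.82).

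The prohibitins and the cristae scaffold had 3 of 4 members higher. Chchd3, a MICOS subunit known as MIC19, went from 116 and 221 normalised counts in controls to 535 and 476 in knockdowns (3.14-fold, adjusted p = 9.36e-05). Immt, or mitofilin, the core of MICOS, went from 228 and 304 to 462 and 491. It rose 1.80-fold (adjusted p = 0.0059), with adjusted p = 0.21 after removal of the GC trend and 0.0568 without the variance trend. Phb had 721 and 895 in controls and 1552 and 1195 in knockdowns, with no overlap (1.69-fold, adjusted p = 0.0105). The Phb call was lost without control replicate 1 (0.0675), without knockdown replicate 1 (0.131) and without the variance trend (0.0829). Phb2, with which it alternates in the same ring, was 2511 and 2599 against 3423 and 2569, and knockdown 2 fell within the controls (log2 fold change 0.22, 95% interval −0.25 to 0.68). It passed at equal library totals (adjusted p = 0.0264) and under quantile normalisation (0.028).

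The other coiled-coil-helix proteins had 2 of 3 members higher. Chchd7, a small intermembrane space protein, went from 104 and 86.8 normalised counts to 212 and 189 (2.09-fold, adjusted p = 0.0027), and its call was lost with the GC trend removed (0.108). Chchd1, a subunit of the mitochondrial ribosome, went from 20.7 and 41.4 to 88.8 and 63.2 (2.50-fold, adjusted p = 0.0089). That call was lost without control replicate 1 (0.0762), without knockdown replicate 1 (0.101), with the GC trend removed (0.0614) and without the variance trend (0.053). Chchd2, which also acts as a stress-responsive regulator in the nucleus, had 2448 and 5306 in controls and 5526 and 3849 in knockdowns. Controls alone spanned most of that range, and it did not pass (log2 fold change 0.36, 95% interval −0.27 to 0.98), although it did without control replicate 2 (adjusted p = 0.0091), after quantile normalisation (0.0176) and with totals made equal (0.0083).

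None of the 3 tested fusion and fission GTPases passed in limma, and 1 (Opa1) had an unadjusted p under 0.05. Mfn2, an outer membrane fusion protein, had 214 and 170 normalised counts in controls and 219 and 209 in knockdowns (log2 fold change 0.16, 95% interval −0.33 to 0.66). Opa1, the inner membrane fusion GTPase, had 9.84 and 5.68 in controls and 12.9 and 27.2 in knockdowns. Its groups did not overlap, but few reads and a wide knockdown spread left it short of the threshold (1.22, 0.01 to 2.42, adjusted p = 0.106), which it passed without control replicate 1 (adjusted p = 0.0421) and at equal library totals (0.0337). Dnm1l, the fission GTPase Drp1, had 3 and 11 reads in controls and 8 and 10 in knockdowns (ratio 1.07, 95% counting interval 0.501 to 2.32). Mfn1, which was under the limit for testing, had 9 and 6 against 1 and 7 reads (ratio 0.442, 0.162 to 1.11). These intervals cover counting error only, and a change in Dnm1l, Mfn1 or Grpel1 within them was not detectable at this depth.

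Ratios of 2 members within a library do not depend on how libraries were scaled, and they describe which members moved apart. Not all pairs are partners in 1 complex, and the ratios were not corrected for the trend on GC content. The 11 pairs were picked after the values were seen, so the differences are descriptions, and with 2 libraries against 2 the smallest two-sided exact permutation p is 0.333. Relative to Timm44, Hspa9 was 2.33 higher in knockdowns on the log2 scale, with log2 ratios of 0.49 and 0.68 in controls and 2.90 and 2.93 in knockdowns. Relative to Lonp1 it was 2.74 higher. Phb gained 0.55 on Phb2, with ratios of −1.80 and −1.54 in controls and −1.14 and −1.10 in knockdowns. Chchd3 gained 0.80 on Immt and Tomm20 gained 0.94 on Tomm40. Tomm22 changed by −0.64 against Tomm40, and Timm13 by −1.03 against Timm10. In these 7 pairs the groups did not overlap and the difference exceeded the wider gap between replicates. Pmpca against Pmpcb (0.56) and Timm9 against Timm10 (0.84) also had separate groups, but their replicates differed by up to 0.79 and 0.85. Timm23 gained 1.24 on Timm44, just beyond a gap of 1.10. Hspe1 against Hspd1 showed no separation, with 0.84 and 1.55 in controls and 2.16 and 0.58 in knockdowns. With the GC trend removed, the log2 fold changes of Tomm20 (1.43) and Tomm40 (1.26) lay closer together. Those of Timm23 (1.17) and Timm44 (0.39) did so too, and Hspa9 (2.05) lay closer to Timm44 and to Lonp1 (0.19). Timm10 (1.98) lay closer to Timm9 (2.19) and to Timm13 (1.46), and Hspe1 (1.09) slightly closer to Hspd1 (0.96). Those of Chchd3 (1.39) and Immt (0.35), and of Phb (1.16) and Phb2 (0.42), lay farther apart. Tomm40 also lay farther from Tomm22 (−0.05), and Pmpca (0.56) from Pmpcb (−0.23).

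**Figure D3:**
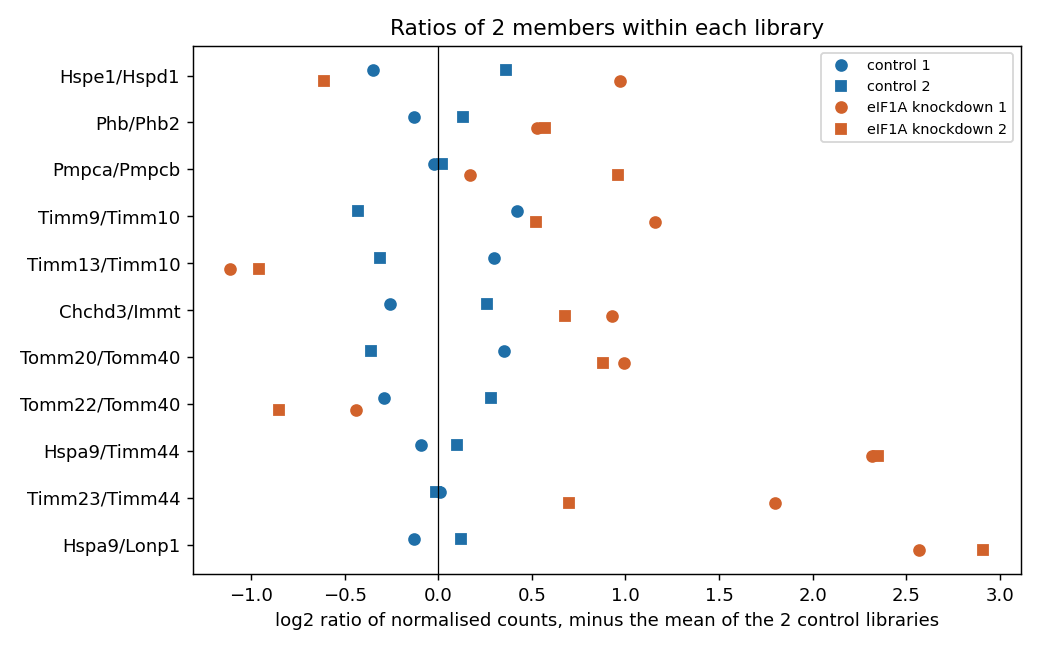
Log2 ratio of 2 members within each library (x axis, minus the mean of the 2 controls), 1 point per library. The knockdown points of Hspa9/Timm44 and Hspa9/Lonp1 lie more than 2 log2 units to the right of the controls, and those of Hspe1/Hspd1 lie on both sides of them.

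Other mitochondrial genes were counted beside the members. Of 54 symbols listed for further import, quality control and dynamics genes, 27 were present and 26 were tested, of which 6 rose (23.1%, against 15.9% of all genes) and 3 fell (11.5%, against 21.6%), with a median log2 fold change of 0.43. Atad3a, an inner membrane ATPase at contact sites, rose from 174 and 153 normalised counts to 410 and 463 (2.66-fold, adjusted p = 8.47e-05). Pitrm1, which degrades cleaved presequences, rose 2.08-fold (adjusted p = 0.0017). Pink1, the kinase that marks mitochondria for removal when import fails, went from 453 and 541 to 182 and 162 and fell 2.88-fold (adjusted p = 3.63e-05). Mtch1, an outer membrane insertase of the carrier family, fell 2.49-fold (adjusted p = 1.68e-04). Without control replicate 1 there were 5 falls in this list. Of 24 tested porins, carriers and citrate cycle enzymes, 2 rose (8.33%) and 4 fell (16.7%), both below the shares over all genes (median −0.09). Idh2, the NADP-linked isocitrate dehydrogenase of the matrix, fell from 2192 and 2308 to 464 and 462 (4.85-fold, adjusted p = 9.65e-08). The citrate carrier Slc25a1 fell 4.01-fold (adjusted p = 5.10e-07) and the oxoglutarate carrier Slc25a11 2.21-fold (adjusted p = 4.06e-04), whereas Idh3a, of the NAD-linked enzyme, rose 2.61-fold (adjusted p = 0.0010). The count of rises in this list was 1 without control replicate 1 or without knockdown replicate 2, and 4 without control replicate 2. Whether the members differ from these lists was not tested.

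**Figure D4:**
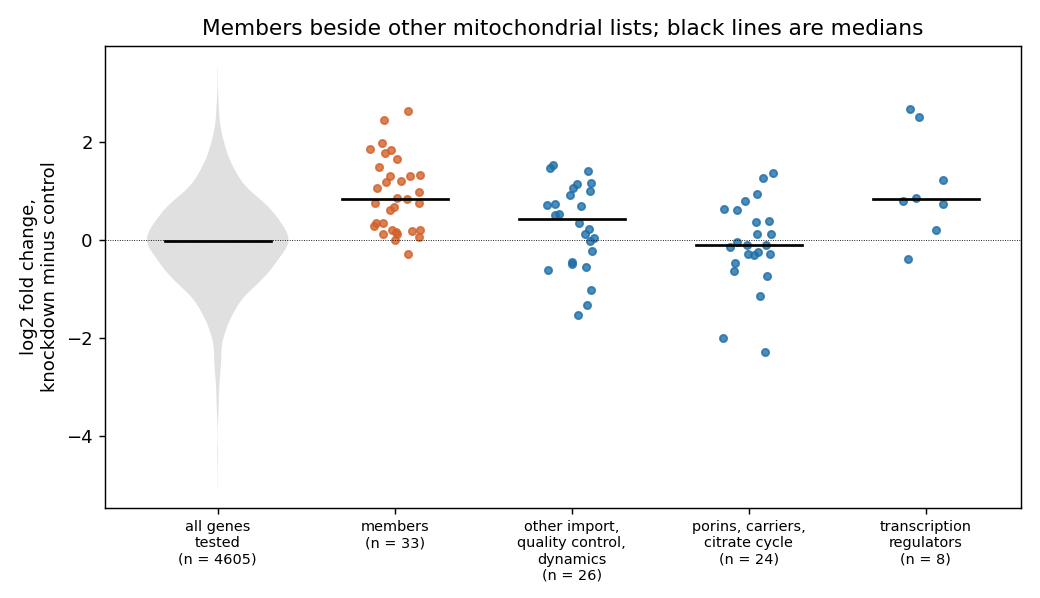
Log2 fold change (knockdown minus control, y axis) of all 4605 genes tested as a density, and of each tested gene of the members and 3 other lists as points, with medians as black lines. The medians are −0.01 for all genes, 0.85 for the members, 0.43 for other import, quality control and dynamics genes, −0.09 for porins, carriers and citrate cycle enzymes and 0.83 for the transcription regulators.

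Of the kinases and transcription regulators listed for mitochondrial protein stress and biogenesis, 8 of 21 were present and tested, none of them a kinase. Of these, 6 rose (75.0%, against 15.9% of all genes) and none fell (against 21.6%). This short list was written with earlier results of these data known. Atf5, the factor most directly tied to the mitochondrial stress response, had 1754 and 1629 normalised counts in controls and 4085 and 3851 in knockdowns (2.35-fold, adjusted p = 1.82e-04). Atf4 rose 6.39-fold (adjusted p = 3.36e-08). Myc, which binds the E-box, went from 29.5 and 30.03 to 119 and 259 (5.74-fold, adjusted p = 1.40e-05), with knockdown 2 well above knockdown 1. Cebpb, a C/EBP partner of ATF4, rose 1.74-fold (adjusted p = 0.0064), which was lost without knockdown replicate 2 (0.113) and without the variance trend (0.0596). Without knockdown replicate 2 this list had 3 rises. The mRNA of CHOP, Ddit3, was not analysed here.

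Transcript GC content moved with the fold changes. Over 4600 genes the fold change fell with GC content of the longest annotated transcript (Pearson r −0.41, Spearman rho −0.44, across genes, which are not independent replicates). Over the 33 members tested the values were −0.34 and −0.36, and all points share the same 4 libraries. The median GC content was 47.5% for the members and 50.5% for all genes. With a loess trend on GC removed from each library, 13 of the 33 members were higher and none fell, and the median over members was 0.70. In that setting 667 of the 4600 genes were higher and 663 lower. Hspa9 then had a log2 fold change of 2.05 (adjusted p = 1.09e-04), Timm9 2.19 (0.0046) and Dnaja3 1.98 (5.21e-04), whereas GC-rich members rose further, Htra2 to 1.40 and Timm13 to 1.46.

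**Figure D5:**
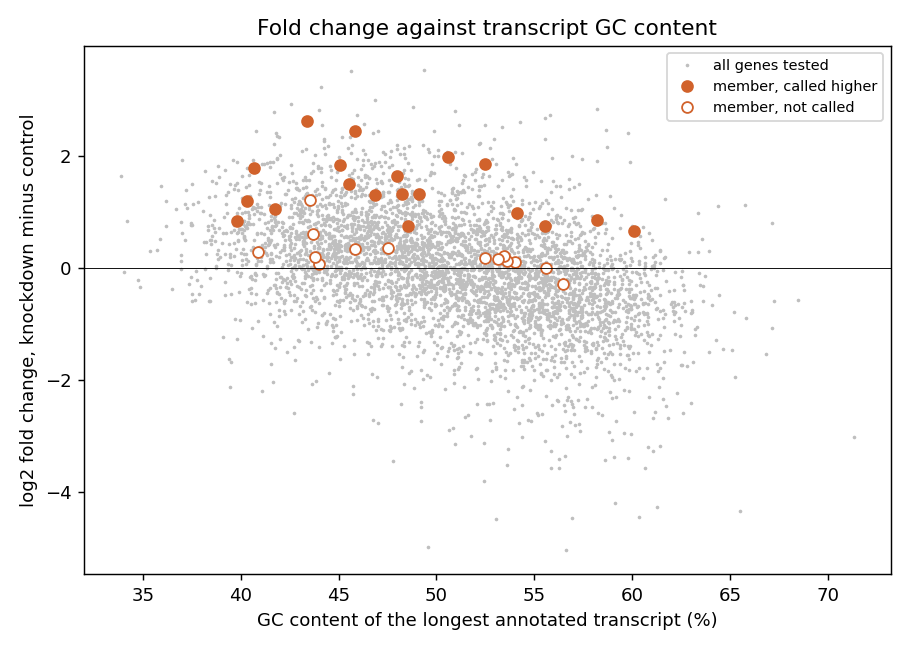
Log2 fold change (knockdown minus control, y axis) against GC content of the longest annotated transcript in percent (x axis), with all genes tested as grey dots and members as circles, filled where called higher. The grey cloud falls with GC content (Pearson r −0.41), and members called higher run from the lowest member GC content, Immt at 39.8%, to the highest, Htra2 at 60.1%.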

How the data were processed

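Bulk MARS-seq, which sequences 3′ ends of polyadenylated RNA, was run on 4 libraries, grouped by title. The deposited values are a signal called normalised counts in the file's name. Per the submitters' processing notes, bcl2fastq 2.17.1.14, cutadapt 1.8.3, STAR, HTSeq, DESeq2 and build mm10 were used; the sources used here do not give the factors, strand use or gene selection. All values (100% within 0.01 read) were whole multiples of 1 step per library, so reads were recovered. The table holds no gene at 0.

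Values were fitted as log2(value + 1) in limma 3.58.1 under R 4.3.3, with its mean-variance trend, over genes of mean at least 5; the fit was tested on simulated data first. Alternatives were pseudocounts, filters, scalings, a replicate block, no trend, edgeR 4.0.16 and DESeq2 1.42.0 on recovered reads, each library left out, and 2 chosen after seeing the data: a crossed block and removal of a loess GC trend (span 0.5). The members, lists and motifs were chosen with earlier results of these data known. Every member is named. From each other list up to 4 genes of smallest p past the threshold are named, and Atf4, Atf5 and Ddit3.

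Replicates differed by more than sampling noise, with a chi-square of 16.5 per degree of freedom in controls and 13.7 in knockdowns. No label gives a batch. Symbols were matched to GENCODE M21 (4873 of 4878). Opposite-strand exons near the 3′ end were found for 8 members (Timm9, Timm13, Tomm70a, Htra2, Phb2, Pmpca, Dnajc19 and Grpel1) and pseudogenes by name for 5 (Hspa9, Hspd1, Hspe1, Dnajc19 and Chchd2), so their counts are uncertain.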

Additional observations from a re-analysis of the deposited data

How the results depend on the processing

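All 19 rises kept a positive fold change under all 17 alternatives (16 for Tomm70a, which a mean of at least 20 removed), and 8 (Hspa9, Timm9, Timm10, Dnaja3, Tomm20, Tomm40, Chchd3 and Hspe1) passed in each. The other 11 missed the threshold in 1 to 4 of them. On recovered reads edgeR and DESeq2 each called 19 members higher and 0 lower. Leaving out 1 library gave 12 to 22 members higher, medians of 0.67 to 0.95, and 438 to 758 genes higher over the table. In the same settings the other import, quality control and dynamics genes had 3 to 5 falls, the porins, carriers and citrate cycle enzymes 1 to 4 rises, and the regulators 3 to 6 rises. With equal library totals 1308 genes were higher and 606 lower, against 733 and 996, and the all-gene median was 0.34 and not −0.01; 25 members were then higher with a median of 1.20, and the import, quality control and dynamics list had 11 rises and the porin, carrier and citrate cycle list 6. That latter list had 1 rise without the variance trend and 1 with the GC trend removed, and the genes called lower over the table were 655 and 663. The causes were not tested. Same-numbered libraries did not deviate together (correlation −0.129 over genes), so the numbers were not taken to pair samples. The replicate block gave 19 members higher, with 641 genes higher and 918 lower over the table, and the crossed pairing 19, 891 and 1154. Depth limits Grpel1, Mfn1 and Dnm1l, each with a library of 1 to 3 reads.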
